A study of Mus musculus with 22 samples.

Results

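Whole-lung RNA from mice kept in normoxia was compared between 6 libraries from mice given ABT-263 and 5 from mice given its vehicle. Libraries were assigned to these groups by their sample titles, and the 11 libraries are part of a set of 22. All mice were young male C57BL6/j animals treated for 8 days. ABT-263 was given at 50 mg/kg per day, and normoxic mice with vehicle were the control condition of the study. The other 11 libraries came from mice of the same strain kept in hypoxia for the same time, 6 with vehicle and 5 with ABT-263. They are used here only to set the effect of the drug in normoxia beside its effect in hypoxia. The labels name no transgene or deletion in any group and assign no library to a batch.

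ABT-263, also named navitoclax, is a small molecule that binds BCL-XL, BCL-2 and BCL-W in the groove by which these survival proteins hold pro-apoptotic BH3 proteins in check. Cells that depend on such a protein then activate BAX and BAK and die, and because senescent cells often depend on them the drug is used as a senolytic. Mature B and T lymphocytes are known to need BCL-2, and platelets need BCL-XL, so low lymphocyte and platelet counts are known effects of this class of drug. The comparison asks which transcripts differed in lungs that had no hypoxic stress.

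The normoxic libraries held 12081262 to 15744193 expected counts, and 16638 genes had enough counts in the 22 libraries to be tested. Lung markers were high in every normoxic library: Sftpc, the surfactant protein C gene of alveolar type 2 cells, was between 23042 and 30672 CPM (read counts scaled to library size). Scgb1a1, the main secretory protein gene of club cells, took 4.67% to 8.87% of all counts. In replicate 1 of the ABT-263 group the title gave another treatment than the treatment tag, as in 2 hypoxic libraries. ABT-263 replicate 2 stood apart in skeletal muscle genes: Tnnt3, a fast muscle troponin gene, was at 463 CPM there and between 1.55 and 6.22 CPM in the other 10 libraries. Replicates 2, 6 and 1 of the ABT-263 group had the highest scores on the first principal component (49.34, 27.95 and 8.24, 25.1% of the variance). The labels do not state that each library is a separate animal, so p-values rest on the spread between libraries and may not extend to animals. For single genes that spread was estimated from all 22 libraries, normoxic and hypoxic.

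The main difference was a lower level of lymphocyte transcripts with ABT-263. Of the 16638 genes, 71 (0.427%) were lower and 18 (0.108%) were higher with ABT-263, taking an adjusted p under 0.05 from the quasi-likelihood test of edgeR. In all, 89 genes (0.535%) were called. The differences were modest: 2 genes were lower by at least 2-fold, the NK cell receptor gene Klra9 and the gene model Gm37192, and 2 were higher by at least 2-fold, Syt12 and Fbxo43. The median log2 fold change of the genes called lower was −0.63 and that of the genes called higher was 0.50, and the quartiles of all tested genes were −0.10 and 0.12. In 45 of the 71 genes called lower, every ABT-263 library was below every vehicle library, which held for 1.03% of all tested genes. In 11 of the 18 called higher, every ABT-263 library was above every vehicle library, against 1.09% of all tested genes. Because the call used the same libraries, the counts without overlap describe the called genes and are no further test.

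The number of calls rested on single libraries. Without vehicle replicate 4 or without ABT-263 replicate 4 it was 1, without ABT-263 replicate 1 it was 2, without vehicle replicate 3 it was 21, without vehicle replicate 5 it was 58, without ABT-263 replicate 2 it was 144 and without vehicle replicate 2 it was 183. Without the 3 libraries whose labels conflict it was 16. Groups formed by the tag instead of the title gave 0 calls by edgeR and 1386 genes below 0.05 before adjustment.

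**Figure D1:**
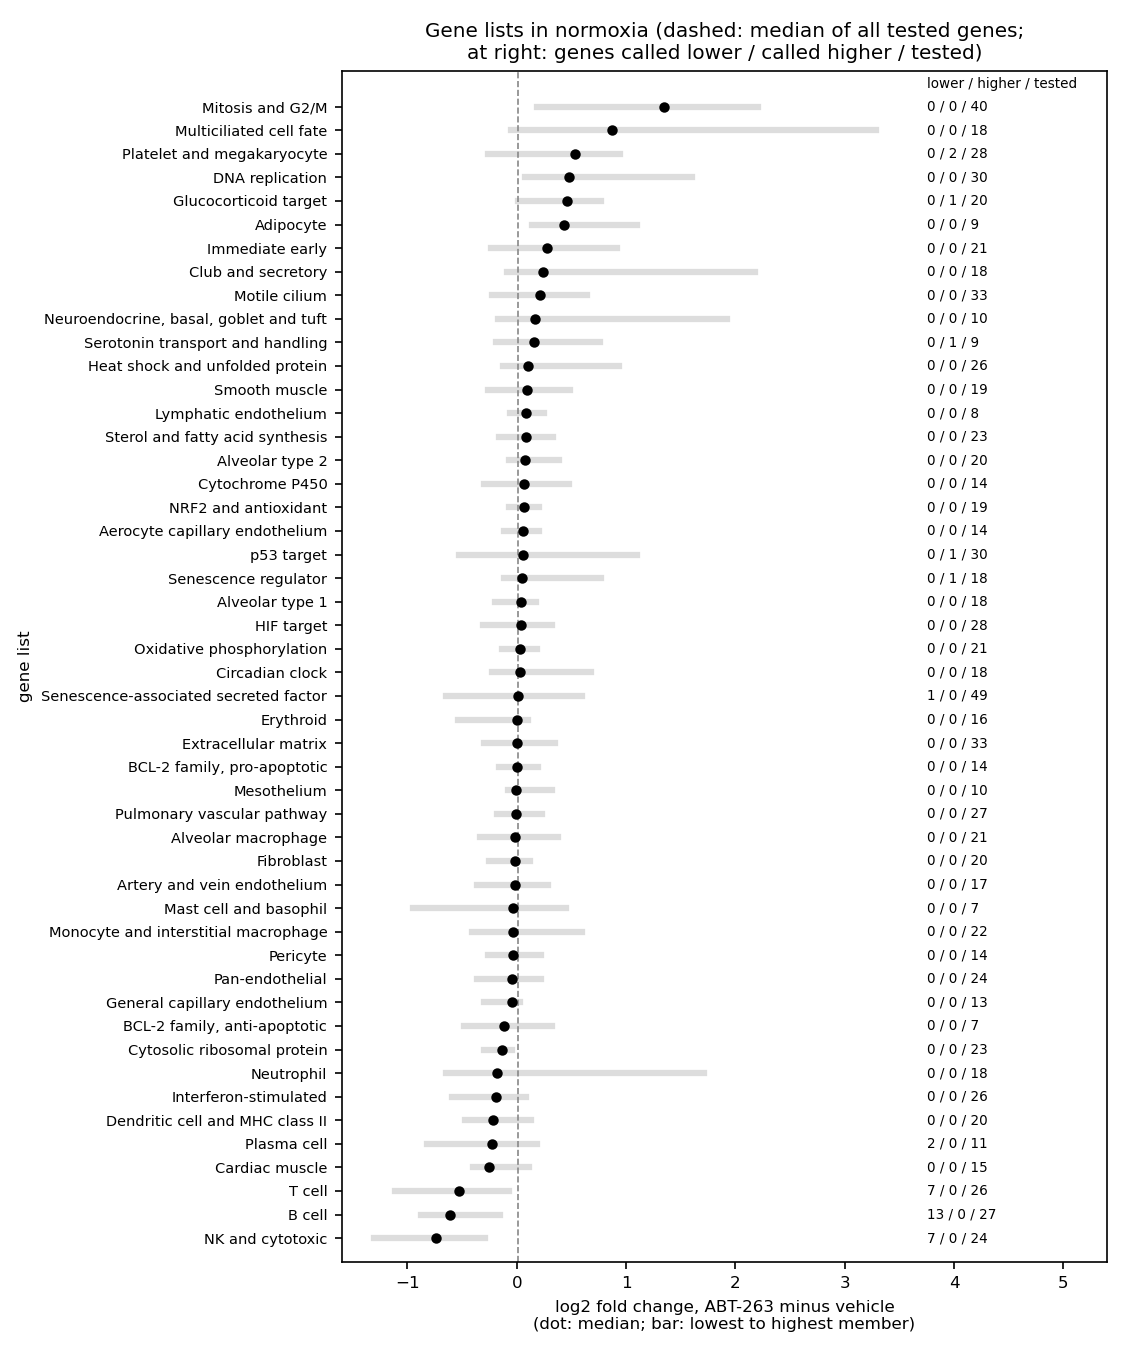
Log2 fold changes (ABT-263 minus vehicle, normoxia) of 49 gene lists: the dot is the median and the bar runs from the lowest to the highest tested member, with counts of members called lower, called higher and tested at the right. The 3 lists at the bottom are NK and cytotoxic (−0.74), B cell (−0.61) and T cell (−0.53), and the list at the top is mitosis and G2/M (1.34), of which no member was called.

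B cell genes were the group with the most calls. Of 27 tested genes 13 were called lower and none higher, where 0.427% of all genes were called lower. All 27 had a log2 fold change below 0, as did 46.3% of all tested genes, and the median was −0.61 against 0.01 for all tested genes. Of the 27, 24 were lower at an unadjusted p under 0.05, as were 5.57% of all genes. The count of 13 was 1 without vehicle replicate 4, ABT-263 replicate 1 or ABT-263 replicate 4, and 5 without vehicle replicate 3 or without the 3 conflicting libraries. The gene with the smallest adjusted p of the whole comparison was Ighd, the constant region gene of the IgD receptor of naive B cells (ENSMUSG00000104213, GRCm38 chromosome 12, 113406604 to 113416324). It was at 95.9, 77.1, 119.1, 126.7 and 90.9 CPM in the 5 vehicle libraries. With ABT-263 its lowest value was 50.0, its median 57.9 and its highest 62.5 CPM. The groups did not overlap, and the log2 fold change was −0.83 ± 0.12 (SE; edgeR adjusted p = 0.00744).

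Genes of the B cell receptor and its co-receptors fell together with Ighd. Cd79a and Cd79b, the signalling chains of the receptor, fell by 0.60 ± 0.12 and 0.65 ± 0.13 on the log2 scale (SE). Cd22, a sialic acid-binding inhibitory receptor, was at 27.9, 26.9, 37.5, 39.5 and 26.4 CPM with vehicle, and at a lowest 17.1, a median 18.03 and a highest 24.3 CPM with ABT-263. No ABT-263 library reached a vehicle library (−0.74 ± 0.13). Fcrl1, another co-receptor of B cells, had the largest log2 fold change of the list (−0.88 ± 0.16).

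Receptors that place and sustain mature B cells were also called lower. Tnfrsf13c, the receptor for the survival factor BAFF, had a log2 fold change of −0.67 ± 0.14, and Cxcr5, the chemokine receptor that brings B cells to follicles, of −0.63 ± 0.12. Fcer2a, the low-affinity IgE receptor CD23 of follicular B cells, fell by 0.73 ± 0.15. The B lineage transcription factor Pax5 did not pass (−0.65 ± 0.19, adjusted p = 0.125), nor did Ms4a1, the gene of CD20 (−0.52 ± 0.16, adjusted p = 0.127). Called genes outside the list included the B cell adaptor Blnk (−0.51 ± 0.10), the kinase Btk (−0.52 ± 0.11), Cd40 (−0.35 ± 0.08) and the activation marker Cd83 (−0.42 ± 0.10). In bulk lung RNA, fewer cells of a type and less RNA per cell cannot be told apart.

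Immunoglobulin transcripts were lower as a share of the library. They took 0.0755% ± 0.0164 of all counts in the vehicle group (SD, n = 5) and 0.0515% ± 0.00352 in the ABT-263 group (SD, n = 6). The highest ABT-263 library (0.0568%) was below the lowest vehicle library (0.0589%), and a two-sided exact permutation test gave p = 0.00433, adjusted p = 0.0216 over 5 such shares and totals. The constant region genes Igkc (−0.55 ± 0.12) and Iglc2 (−0.82 ± 0.16) were the only 2 of 11 tested plasma cell genes called lower. The immunoglobulin share counts Igkc, Iglc2 and Ighd in the same libraries, so its test is not independent of their calls. Reads of immunoglobulin genes may be divided between near copies. Genes of the secretory machinery of plasma cells did not pass: Jchain, which joins IgA and IgM units, was at −0.03 ± 0.34, and Xbp1, the transcription factor of the secretory programme, at −0.03 ± 0.08.

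The octamer is the short DNA element by which OCT transcription factors and their B cell coactivator act on immunoglobulin and other B cell promoters. The letters ATGCAAAT were searched on both strands in the 250 bases before each annotated gene start. None of the 8 called B cell list genes with a promoter in the RefSeq table (GRCm38.p6) held them. The planned search covered only those called B cell list genes, and all genes called lower were searched in addition. Among these, 4 of the 53 with a promoter held the letters (7.55%), against 1.52% of the tested genes with a promoter. This contrast was not tested. These 4 promoters were chosen after the values were seen and are shown because their genes were called lower, with the octamer or its reverse complement in capitals, 5′ to 3′ on the strand of the gene. Blnk encodes the B cell linker (chr19:40994222-40994471, minus strand), Sash3 a lymphocyte signalling adaptor (chrX:48146186-48146435, plus strand), Prkcb the protein kinase C beta that acts downstream of the B cell receptor (chr7:122288875-122289124, plus strand), and Fcho1 an endocytic adaptor (chr8:71725682-71725931, minus strand).
Blnk: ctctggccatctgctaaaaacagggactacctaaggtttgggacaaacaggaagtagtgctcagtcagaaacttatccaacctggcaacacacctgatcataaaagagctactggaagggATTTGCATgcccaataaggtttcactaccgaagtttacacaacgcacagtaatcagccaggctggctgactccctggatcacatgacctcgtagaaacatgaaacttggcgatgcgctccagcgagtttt
Sash3: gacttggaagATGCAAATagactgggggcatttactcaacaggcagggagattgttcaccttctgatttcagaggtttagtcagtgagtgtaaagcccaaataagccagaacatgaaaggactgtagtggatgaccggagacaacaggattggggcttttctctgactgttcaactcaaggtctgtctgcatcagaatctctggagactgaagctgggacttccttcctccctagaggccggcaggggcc
Prkcb: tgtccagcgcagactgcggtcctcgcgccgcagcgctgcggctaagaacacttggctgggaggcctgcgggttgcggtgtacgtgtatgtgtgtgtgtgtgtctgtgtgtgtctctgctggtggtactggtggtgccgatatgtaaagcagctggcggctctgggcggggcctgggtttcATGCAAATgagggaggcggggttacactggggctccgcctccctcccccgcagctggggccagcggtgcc
Fcho1: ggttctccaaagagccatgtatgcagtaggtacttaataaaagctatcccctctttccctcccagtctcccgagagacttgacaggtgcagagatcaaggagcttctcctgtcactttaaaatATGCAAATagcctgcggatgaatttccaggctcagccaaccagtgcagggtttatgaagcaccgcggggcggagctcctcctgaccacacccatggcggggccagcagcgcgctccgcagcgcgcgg
The match began 130 bases before the gene start in Blnk, 240 in Sash3, 70 in Prkcb and 127 in Fcho1. Sash3 was at 24.7, 24.3, 26.8, 38.1 and 30.6 CPM with vehicle and at a lowest 16.8, a median 20.7 and a highest 22.4 CPM with ABT-263, without overlap (−0.52 ± 0.10). Prkcb (−0.57 ± 0.13) and Fcho1 (−0.71 ± 0.17) did not overlap either. A match is a description of these letters and not a measured binding site.

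Some genes of MHC class II peptide loading were among the genes called lower, and they are described here after their values were seen. H2-Ob and H2-Oa encode the chains of H2-O, which holds back the peptide exchange factor H2-M, and H2-DMb2 encodes a chain of H2-M. H2-Ob (chromosome 17, 34238903 to 34254414) was at 44.7, 37.7, 53.4, 52.6 and 42.5 CPM with vehicle and at a lowest 25.5, a median 28.6 and a highest 39.3 CPM with ABT-263. Only ABT-263 replicate 2, at the highest value, reached the vehicle range (−0.64 ± 0.11, adjusted p = 0.0218). H2-Oa (−0.64 ± 0.14) and H2-DMb2 (−0.56 ± 0.11) did not overlap between the groups. The other H2-M chains did not pass: H2-DMa was at −0.29 ± 0.11 (adjusted p = 0.232) and H2-DMb1 at −0.18 ± 0.09 (adjusted p = 0.412). The peptide transporter gene Tap1, which serves MHC class I, lies between them and was also called lower (−0.51 ± 0.11). From H2-Oa to H2-Ob, 34092340 to 34254414, 11 genes were tested, 4 were called lower and all 11 had a log2 fold change below 0. This stretch was chosen after the values were seen, and 2 of the 4 calls are the genes at its ends. Of all tested genes 0.427% were called lower and 46.3% were below 0. None of the 20 genes of the dendritic cell and MHC class II list was called, 18 of them were below 0 and the median was −0.22. Whether these genes differ from the called ones was not tested. H2-Q6, a class I gene with close copies, was called lower (−0.61 ± 0.14).

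T cell genes had 7 of 26 tested members called lower and none higher, where 0.427% of all tested genes were called lower. All 26 had a log2 fold change below 0 (median −0.53), as did 46.3% of all tested genes. No T cell gene was called without vehicle replicate 4, ABT-263 replicate 1 or ABT-263 replicate 4, 3 without vehicle replicate 3 or vehicle replicate 5, and 2 without the 3 libraries with conflicting labels. With vehicle replicate 2 left out 12 were called, and 11 without ABT-263 replicate 2. Cd5, a receptor that tunes T cell receptor signals and is also carried by some B cells (ENSMUSG00000024669, chromosome 19, 10717116 to 10739002), was at 3.43, 3.67, 3.64, 4.48 and 4.77 CPM with vehicle. With ABT-263 its lowest value was 1.79, its median 2.07 and its highest 2.47 CPM. The groups were well separated (−0.91 ± 0.16, adjusted p = 0.0218). Cd3e, a chain of the T cell receptor complex, was at 8.36, 5.32, 7.64, 9.86 and 8.48 CPM with vehicle and at a lowest 3.52, a median 4.41 and a highest 5.73 CPM with ABT-263. ABT-263 replicate 6 was above vehicle replicate 2, which alone overlapped (−0.83 ± 0.18). The complex chain Cd3g (−0.52 ± 0.11), the kinase Lck that starts T cell receptor signalling (−0.54 ± 0.13) and the lymph node homing receptor Ccr7 (−0.62 ± 0.12) also fell. Trbc1 and Trbc2, the near-identical constant regions of the receptor's beta chain, were called lower, and the division of reads between them is uncertain. The co-receptor genes of the main T cell subsets did not pass: Cd8a was at −0.83 ± 0.20 (adjusted p = 0.0640) and Cd4 at −0.40 ± 0.18 (adjusted p = 0.308).

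NK and cytotoxic genes had the lowest median of any list, −0.74. Of all tested genes 0.427% were called lower and 46.3% had a log2 fold change below 0. Of the 24 tested NK and cytotoxic genes 7 were called lower, none higher, and all 24 were below 0. The count was 0 without vehicle replicate 4, ABT-263 replicate 1, ABT-263 replicate 4 or the 3 conflicting libraries, 2 without vehicle replicate 3, vehicle replicate 5 or ABT-263 replicate 5, and 3 without ABT-263 replicate 3 or 6. Klrd1 encodes CD94, the shared partner chain of some NKG2 receptors, not including NKG2D (chromosome 6, 129591782 to 129598775). It was at 12.2, 10.2, 13.6, 12.7 and 13.3 CPM with vehicle and at a lowest 5.25, a median 6.43 and a highest 9.93 CPM with ABT-263. The groups did not overlap, although ABT-263 replicates 2 and 6 were close to the lowest vehicle library (−0.76 ± 0.16). Klrk1, the activating receptor NKG2D, fell by 0.73 ± 0.14 and Nkg7, a cytotoxic granule protein, by 0.74 ± 0.17. Klra9 had the largest fall of the called genes other than the gene model Gm37192 (−1.31 ± 0.26), but Klra genes are close copies and their values are uncertain. The cytotoxic effectors Gzma (−0.84 ± 0.24, adjusted p = 0.122) and Prf1 (−0.60 ± 0.18, adjusted p = 0.121) did not pass.

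Many NK receptor genes lie side by side in a cluster on chromosome 6. From the called gene Clec2i, a C-type lectin gene, to the called gene Klra9 (128887588 to 130193112), 27 genes were tested, of which 5 were called lower and none higher. Of all tested genes 0.427% were called lower. Of the 27, 22 had a log2 fold change below 0, as did 46.3% of all tested genes, and the median was −0.42 against 0.01. The stretch was chosen after the values were seen, and its end genes Clec2i and Klra9 are among the 5 calls.

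Genes outside the lymphocyte lists were called lower too. Of the 71 genes, 29 were in the B, plasma, T or NK lists and 42 were not. The 42 included Ltb, a cytokine of lymphoid tissue (−0.58 ± 0.11), Coro1a, an actin regulator of leukocytes (−0.46 ± 0.10), Satb1, a chromatin organiser of T cells (−0.44 ± 0.10), the interleukin 18 receptor chain Il18rap (−0.64 ± 0.14) and Tlr1 (−0.75 ± 0.17). Not every called gene is a leukocyte gene. Ces2e, a carboxylesterase, was at 4.25, 3.97, 3.64, 3.34 and 4.77 CPM with vehicle and at a lowest 1.68, a median 2.31 and a highest 2.76 CPM with ABT-263 (−0.81 ± 0.17).

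**Figure D2:**
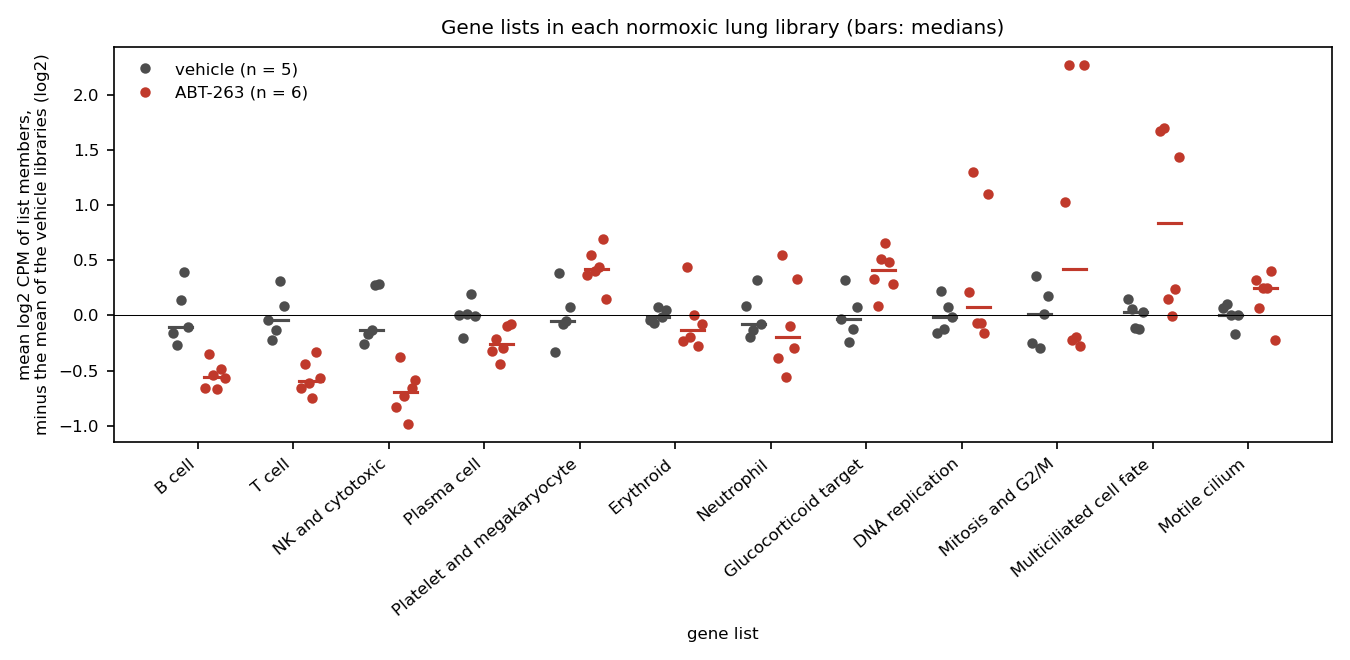
Mean log2 CPM of the tested members of 12 gene lists in each normoxic library, less the mean of the 5 vehicle libraries; each point is a library and each bar the median of its group. Every ABT-263 library lies below every vehicle library for the B, T and NK lists, and 3 of 6 ABT-263 libraries lie above the rest for the mitosis and multiciliated lists.

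No gene of the myeloid and red cell lists was called, where 0.535% of all tested genes were called in either direction. This held for 18 neutrophil genes (median −0.18), 21 alveolar macrophage genes (−0.01), 22 monocyte and interstitial macrophage genes (−0.04) and 16 erythroid genes (0.00). The summed level of the neutrophil list ran from 619 to 797 CPM with vehicle and from 480.1 to 1018 CPM with ABT-263. Haemoglobin genes took 0.473% ± 0.0602 of counts with vehicle (SD, n = 5) and 0.474% ± 0.127 with ABT-263 (SD, n = 6; exact permutation p = 0.983). Interferon-stimulated genes had a median of −0.19 with 25 of 26 genes below 0, and none was called. All 23 ribosomal protein genes were below 0 as well, with a median of −0.14 and no call.

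Platelet and megakaryocyte genes were on the other side. Of 28 tested genes 2 were called higher and none lower, where 0.108% of all genes were called higher. Trpc6, Gng11 and Selp were below 0 and the other 25 above, with a median of 0.54. Tubb1, the beta-tubulin of the platelet marginal band (ENSMUSG00000016255, chromosome 2, 174450695 to 174457882), was at 8.63, 19.7, 10.9, 10.7 and 15.8 CPM with vehicle and at a lowest 17.05, a median 25.04 and a highest 35.1 CPM with ABT-263. Vehicle replicate 2 reached the ABT-263 range, where replicate 6 was lowest (0.94 ± 0.20, adjusted p = 0.0311). Slc6a4, the serotonin transporter that platelets and lung endothelium carry (chromosome 11, 76998603 to 77032340), was at 3.56, 6.67, 4.64, 5.16 and 5.90 CPM with vehicle and at a lowest 6.60, a median 8.66 and a highest 11.6 CPM with ABT-263. Its groups met only at vehicle replicate 2 and ABT-263 replicate 6 (0.76 ± 0.15, adjusted p = 0.0254). The call of Tubb1 was lost without vehicle replicate 1, 3 or 4 or ABT-263 replicate 1, 3, 4 or 5 (edgeR adjusted p up to 0.153), and that of Slc6a4 without vehicle replicate 3 or 4 or ABT-263 replicate 1 or 4 (up to 0.106). Both were also lost without the 3 libraries with conflicting labels (0.0991 and 0.0696).

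The following platelet genes were not called, with log2 fold changes from 0.14 to 0.79. The receptor chains Itga2b (0.68 ± 0.19, adjusted p = 0.0981), Gp9 (0.76 ± 0.22, adjusted p = 0.107) and Gp1ba (0.79 ± 0.25, adjusted p = 0.143) and the granule chemokine Ppbp (0.68 ± 0.23, adjusted p = 0.190) did not pass, and Pf4, which encodes platelet factor 4, was at 0.14 ± 0.14. The summed level of the list ran from 469 to 710.3 CPM with vehicle and from 631 to 803 CPM with ABT-263. Leaving out a single library moved the list's median between 0.42 and 0.64. Among 9 tested genes of serotonin handling Slc6a4 was the only call, and the receptors Htr2b (0.23) and Htr1b (0.16) and the degrading enzyme Maoa (−0.09) did not pass.

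**Figure D3:**
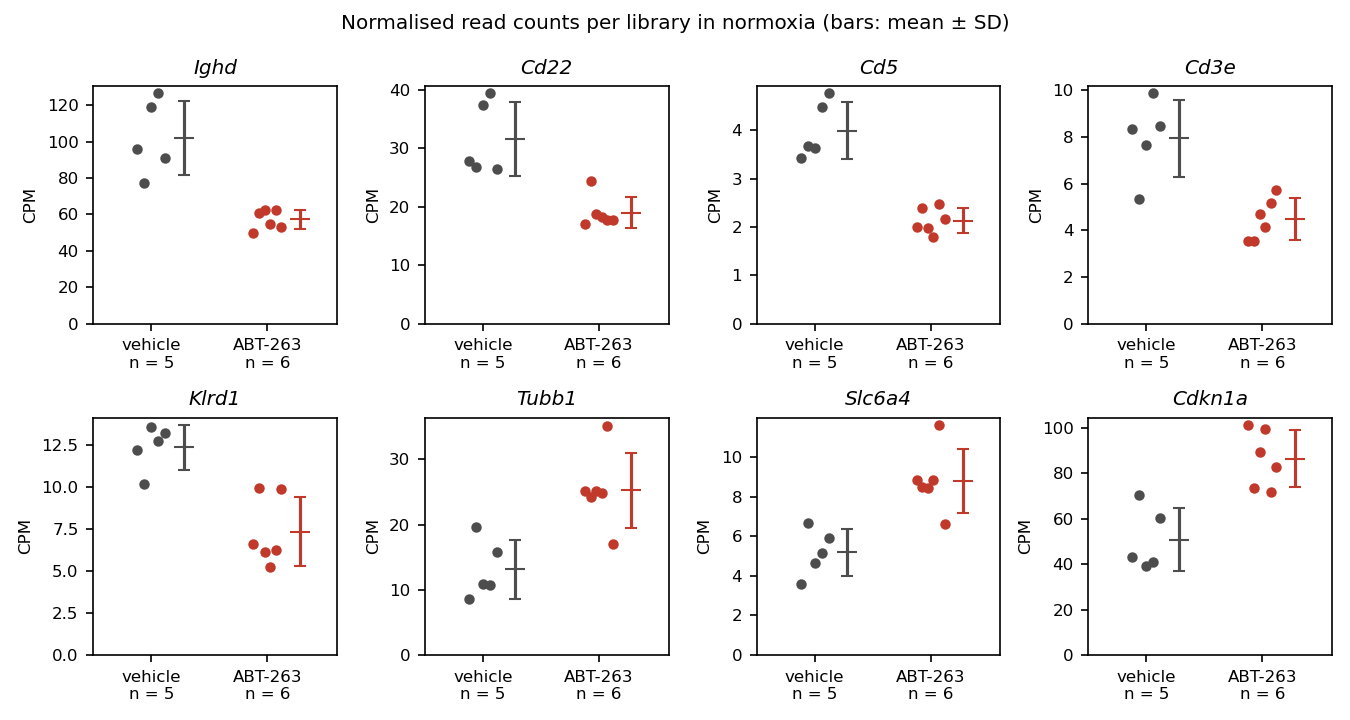
CPM of 8 genes in each normoxic library, with the mean and SD of each group beside the points. For Ighd, Cd22, Cd5 and Klrd1 all 6 ABT-263 libraries lie below all 5 vehicle libraries, for Cdkn1a all lie above, and for Cd3e, Tubb1 and Slc6a4 the groups overlap.

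Cdkn1a was the only gene called among the cell cycle inhibitors and p53 targets. It encodes p21, which blocks cyclin-dependent kinases, and is induced by p53, by glucocorticoids and in senescence (ENSMUSG00000023067, chromosome 17, 29090976 to 29100727). It was at 43.2, 70.6, 39.1, 40.9 and 60.4 CPM with vehicle and at a lowest 71.6, a median 86.2 and a highest 101.4 CPM with ABT-263. The lowest ABT-263 library lay just above the highest vehicle library (0.77 ± 0.16, adjusted p = 0.0328). The call was lost without vehicle replicate 1, 3 or 4 or ABT-263 replicate 1, 3, 4 or 6 (edgeR adjusted p up to 0.161), and without the 3 libraries with conflicting labels (0.097). Of 30 tested p53 targets Cdkn1a alone was called, where 0.108% of all tested genes were called higher. Their median was 0.05, with values from −0.53 to 1.10. With Cdkn1a counted, 5 were higher and 2 lower at an unadjusted edgeR p under 0.05, against 7.45% and 5.57% of all tested genes. Mdm2, the ubiquitin ligase that p53 induces, was at −0.04 ± 0.07 and Bax at 0.01 ± 0.08. All 20 glucocorticoid targets had a log2 fold change above 0 (median 0.46), where 53.7% of all tested genes did, and Cdkn1a was again the only call. Fkbp5 (0.57 ± 0.20, adjusted p = 0.206), Tsc22d3 (0.53 ± 0.32, adjusted p = 0.499) and Per1 (0.68 ± 0.36, adjusted p = 0.434), which are induced by the glucocorticoid receptor, did not pass.

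Few genes of the senescence lists were called, where 0.535% of all tested genes were called in either direction. At that share, lists of this size would hold few calls. Of 18 tested senescence regulators Cdkn1a was the only call. Cdkn2a, the p16 gene used as a senescence marker, had 5 to 15 counts in the normoxic libraries and was not tested. Of 49 senescence-associated secreted factors 1 was called, the chemokine Ccl5, which fell (−0.58 ± 0.14) and is also made by T and NK cells. The list's median was 0.01.

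The targets of the drug and their partners were not called, where 0.535% of all tested genes were called in either direction. Bcl2l1, the gene of BCL-XL (chromosome 2, 152780668 to 152831728), was at 84.1, 114.4, 76.1, 82.4 and 92.3 CPM with vehicle and at a lowest 93.9, a median 106.2 and a highest 147.3 CPM with ABT-263, with an overlap through vehicle replicate 2 (0.32 ± 0.11, adjusted p = 0.195). Bcl2 was at −0.11 ± 0.09, Bcl2l2, the gene of BCL-W, at 0.15 ± 0.11, and Mcl1, a relative that the drug does not bind well, at 0.01 ± 0.09. Bcl2a1d, a leukocyte member of the family with close copies, was at −0.48 ± 0.19 (adjusted p = 0.268). None of 14 tested pro-apoptotic genes was called, with values from −0.17 for Bik to 0.19 for Bbc3 and a median of 0.00.

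Cell division genes had the highest median of any list, and the high values came from 3 of the 6 ABT-263 libraries. All 40 tested genes of mitosis and G2/M had a log2 fold change above 0 (median 1.34) and 36 had an unadjusted p under 0.05 with a higher value, against 7.45% of all genes, yet none was called. Cdk1, the kinase that starts mitosis, was at 4.11, 7.04, 3.43, 4.70 and 4.97 CPM with vehicle. The ABT-263 libraries, in the order of replicates 1 to 6, held 21.9, 51.5, 4.14, 5.52, 3.37 and 42.8 CPM. Replicates 1, 2 and 6 were above every vehicle library and replicates 3, 4 and 5 were at the vehicle level (2.15 ± 0.61, adjusted p = 0.122). Mki67, a marker of dividing cells, was at 14.95, 43.2, 9.30, 6.97, 6.66 and 47.4 CPM in the same order, where the vehicle libraries ran from 7.06 to 15.7 CPM (1.06 ± 0.48, adjusted p = 0.345). Without ABT-263 replicates 2 and 6 the median of the mitosis list was 0.15 and that of 30 DNA replication genes −0.03, against 0.48 with them. With limma-voom the mitosis median was 0.81, and without ABT-263 replicate 2 alone the replication median was 0.21. Markers of other cells were high in some of the same libraries. Agr2, a gene of secretory airway cells, was at 23.7, 48.2 and 36.1 CPM in ABT-263 replicates 1, 2 and 6 and between 0.883 and 8.50 CPM in the other 8 libraries. The neutrophil score, a mean log2 CPM over its 18 tested genes, was highest in ABT-263 replicates 2 (4.23) and 6 (4.02), and the vehicle libraries reached 4.01. The part of these cells in the values was not tested. The B cell median without these 2 libraries was −0.67.

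Promoters of mitotic genes often hold the cell cycle homology region, with the letters TTTGAA. These letters, on either strand, were in the 250 bases before the start of 13 of the 33 mitosis list genes with a promoter in the table (39.4%), against 13.4% of tested genes with a promoter. The element was chosen after the values were seen. The promoters of 2 of the list's genes with a match are shown, with TTTGAA or its reverse complement in capitals: Cdk1 (chr10:69352913-69353162, minus strand) and Kif2c, a microtubule depolymerase of dividing cells (chr4:117178773-117179022, minus strand).
Cdk1: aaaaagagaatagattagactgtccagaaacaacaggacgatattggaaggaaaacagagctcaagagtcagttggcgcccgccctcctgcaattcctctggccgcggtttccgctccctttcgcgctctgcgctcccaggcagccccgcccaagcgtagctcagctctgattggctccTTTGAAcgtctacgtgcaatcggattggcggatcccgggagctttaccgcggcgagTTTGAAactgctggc
Kif2c: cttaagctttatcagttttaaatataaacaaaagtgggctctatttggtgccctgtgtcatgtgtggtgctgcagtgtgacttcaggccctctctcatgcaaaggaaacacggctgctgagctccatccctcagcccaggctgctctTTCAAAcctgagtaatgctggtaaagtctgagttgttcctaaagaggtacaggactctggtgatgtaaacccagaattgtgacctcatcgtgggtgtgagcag
In Cdk1 the letters began 71 and 15 bases before the gene start, and in Kif2c 103 bases before it. Kif2c was at 1.44, 1.12, 0.857, 1.44 and 1.33 CPM with vehicle and at 5.92, 8.81, 1.02, 1.24, 1.48 and 8.36 CPM with ABT-263, replicates 1 to 6, so that the same 3 libraries were high (1.85 ± 0.52, adjusted p = 0.110).

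Genes that start multiciliated cell differentiation were high in the same 3 ABT-263 libraries. The score of the 18 tested club and secretory genes, a list that holds Agr2, was also highest in replicates 1, 2 and 6 (8.49, 8.69 and 8.73), with 8.45 in the highest vehicle library. The summed level of that list, which Scgb1a1 leads, was not: it was 68421 and 76464 CPM in replicates 2 and 6 and ran from 83622 to 119090 CPM with vehicle. The part of secretory cells in these values was not tested. Airway progenitors that become multiciliated cells switch on Gmnc and Mcidas, whose proteins act with E2F factors, and then amplify centrioles through Ccno, Deup1, Plk4 and Stil before the axoneme is built under Foxj1. Mcidas (chromosome 13, 112993845 to 113000394) was at 1.78, 1.05, 0.571, 0.379 and 1.13 CPM with vehicle. With ABT-263 it was at 18.2, 19.2, 1.15, 1.04, 1.15 and 17.5 CPM, replicates 1 to 6. Replicates 1, 2 and 6 were far above the highest vehicle library and the others were within the vehicle range (3.28 ± 0.88, adjusted p = 0.0945). Ccno, which lies beside Mcidas on chromosome 13 (112987802 to 112990777), was at 49.2, 51.2, 5.97, 5.59, 6.17 and 46.9 CPM in the ABT-263 libraries and from 3.95 to 7.06 CPM with vehicle (2.44 ± 0.69, adjusted p = 0.121). Cdc20b lies next in the same direction (113035111 to 113091195) and was at 10.2, 8.89, 0.272, 0.207, 0.493 and 4.78 CPM in the ABT-263 libraries, with 0.411 to 0.607 CPM in vehicle libraries.

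Of 18 tested genes of multiciliated fate none was called, 17 were above 0 and the median was 0.87. The 18 leave out the called gene Fbxo43, described below, because the list named it by an older symbol, Emi2, which was not matched. With treatment read from the tag, which moves ABT-263 replicate 1 to the vehicle group, the median of the 18 was 0.42. Deup1, which builds the deuterosome on which centrioles form, was at 68.8, 70.8, 7.40, 8.28, 8.96 and 36.5 CPM in the ABT-263 libraries, and the vehicle libraries ran from 5.93 to 9.66 CPM. Fbxo43, an inhibitor of the anaphase-promoting complex, was the gene with the highest called log2 fold change (3.17 ± 0.71, adjusted p = 0.0423). It was at 0.0685, 0.225, 0.143, 0.304 and 0.331 CPM with vehicle and at 3.49, 5.05, 0.339, 0.345, 0.329 and 2.43 CPM with ABT-263, so that its call rests on replicates 1, 2 and 6. The centrosomal gene Cep76, also called, was at 18.01, 17.7, 7.94, 9.39, 9.62 and 13.5 CPM, and its vehicle libraries ran from 6.69 to 8.86 CPM (0.77 ± 0.18).

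Foxj1 and Myb followed this split only in part. Foxj1, the master regulator of motile cilia, was at 174.8, 220.03, 147.9, 140.2 and 158.5 CPM with vehicle and at 350.5, 274.4, 228.8, 240.2, 241.5 and 242.5 CPM with ABT-263. All 6 ABT-263 libraries were above all vehicle libraries, but the gene did not pass (0.64 ± 0.17, adjusted p = 0.0868). Myb, a regulator of the same programme, was at 69.0, 62.2, 34.1, 33.1, 37.0 and 66.0 CPM with ABT-263 and between 24.3 and 30.4 CPM with vehicle (0.86 ± 0.20, adjusted p = 0.0614). Of 33 genes of the cilium itself none was called, and the median was 0.21. The list score of these genes was lowest in ABT-263 replicate 6 and highest in ABT-263 replicate 5. ABT-263 replicate 2, 1 of the 3 high libraries, is also the library with the skeletal muscle gene Tnnt3 at 463 CPM, and ABT-263 replicates 1 and 6 had it between 1.55 and 6.22 CPM. The part of muscle RNA in these values was not tested.

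**Figure D4:**
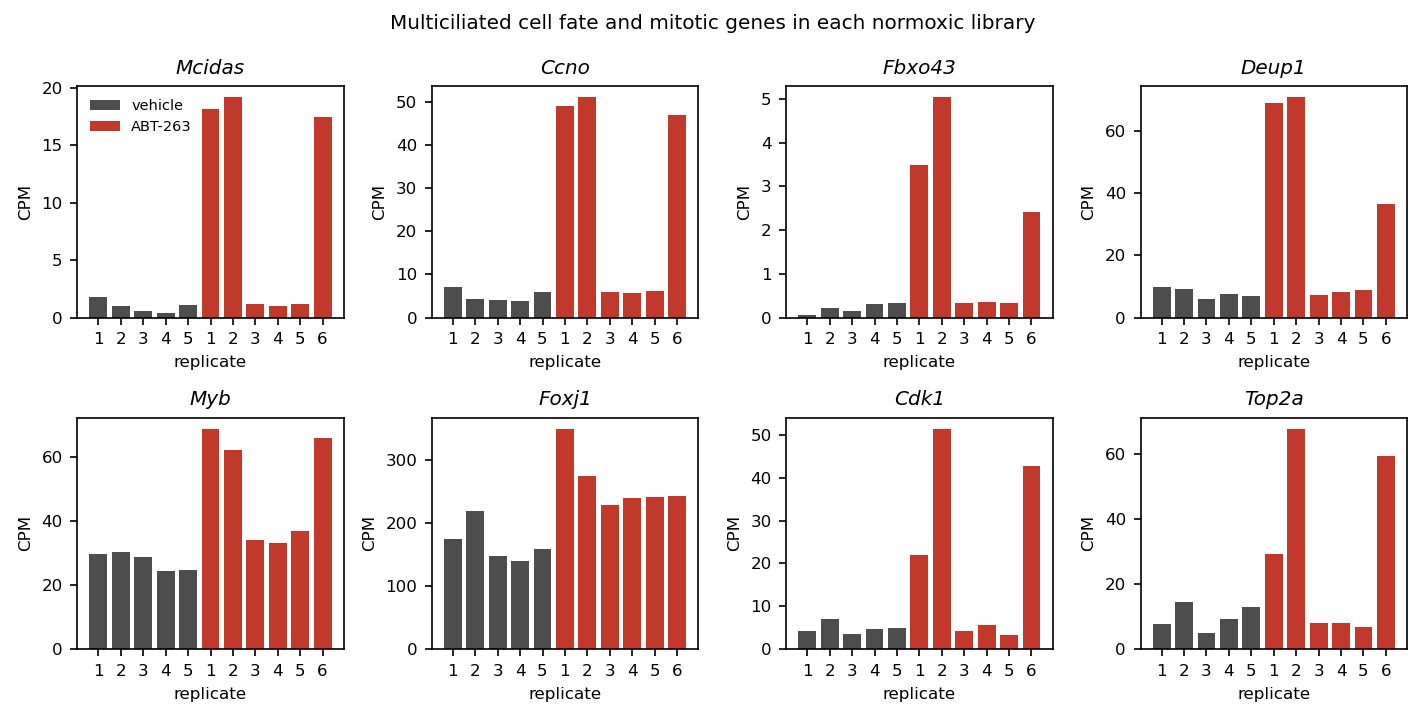
CPM of 8 genes of multiciliated cell fate and cell division in each normoxic library, with vehicle replicates 1 to 5 in grey and ABT-263 replicates 1 to 6 in red. Mcidas, Ccno, Fbxo43, Deup1, Cdk1 and Top2a are high in ABT-263 replicates 1, 2 and 6 and near the vehicle level in replicates 3, 4 and 5, whereas all 6 ABT-263 libraries of Foxj1 exceed the vehicle libraries.

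The remaining called genes that rose came from several functions. Syt12, a synaptotagmin of vesicle membranes, was at 1.30, 1.27, 1.07, 0.607 and 0.530 CPM with vehicle and at a lowest 1.43, a median 2.20 and a highest 3.57 CPM with ABT-263, without overlap (1.28 ± 0.28, adjusted p = 0.0305). Pcx, the mitochondrial pyruvate carboxylase, was at 95.9, 85.6, 74.1, 69.1 and 80.7 CPM with vehicle and at a lowest 102.0, a median 112.4 and a highest 124.4 CPM with ABT-263, also without overlap (0.47 ± 0.09). The amino acid transporters Slc38a4 (0.51 ± 0.11) and Slc7a2 (0.45 ± 0.09), the potassium channel Kcnj13 (0.41 ± 0.10), the ubiquitin ligase Lnx1 (0.58 ± 0.14), the deubiquitinase Usp43 (0.49 ± 0.11), the endoplasmic reticulum protein Lrrc59 (0.40 ± 0.09) and the Hippo pathway protein Mob1b (0.25 ± 0.06) rose.

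No gene of the structural cell lists of the lung was called, where 0.535% of all tested genes were called in either direction. At that share, lists of this size may hold no call, so its absence does not show that these cells were unaffected. None of the tested genes of general capillary (13), aerocyte (14), pan-endothelial (24), arterial and venous (17) or lymphatic endothelium (8) passed, with medians from −0.05 to 0.09. The same held for pericytes (14 genes, median −0.04), smooth muscle (19, 0.09), fibroblasts (20, −0.02) and extracellular matrix (33, 0.00). No gene of alveolar type 1 (18, 0.04) or alveolar type 2 cells (20, 0.07) was called, nor of club and secretory cells (18, 0.24). Of these 18 club and secretory genes, 5 were higher and 0 lower at an unadjusted edgeR p under 0.05. The shares of all tested genes were 7.45% and 5.57%. Pecam1, an adhesion protein of endothelium, had a mean of 556 CPM (SD 82.6, n = 5) in the vehicle group and 555 CPM (SD 77.3, n = 6) in the ABT-263 group. Of 27 genes of pulmonary vascular pathways none was called.

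The last question was whether ABT-263 had the same effect in hypoxia. The hypoxia comparison shares no library with the normoxia one, but both come from a single fit. There, 50 genes were called (0.301%), 31 lower (0.186%) and 19 higher (0.114%), which became 16 lower and 20 higher with library totals in place of TMM scaling. The hypoxia total ran from 3, without vehicle replicate 2, to 228, without ABT-263 replicate 1. It was 4 or 5 without ABT-263 replicate 5 or 4, 11 without vehicle replicate 1 or 4, 26 without vehicle replicate 3 and 28 without ABT-263 replicate 2. Of the 71 genes called lower in normoxia, 66 were also below 0 in hypoxia, where 51.9% of all tested genes were, and 48 had an unadjusted p under 0.05 in the lower direction, against 7.24% of all genes. Both comparisons called 15 genes lower, which is 21.1% of the normoxia list and 48.4% of the hypoxia list. Of the 18 genes called higher in normoxia, 11 were above 0 in hypoxia, 5 had an unadjusted p under 0.05 in that direction (7.10% of all genes), and none was called. The median log2 fold change in hypoxia was −0.41 for the lower genes and 0.11 for the higher ones.

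**Figure D5:**
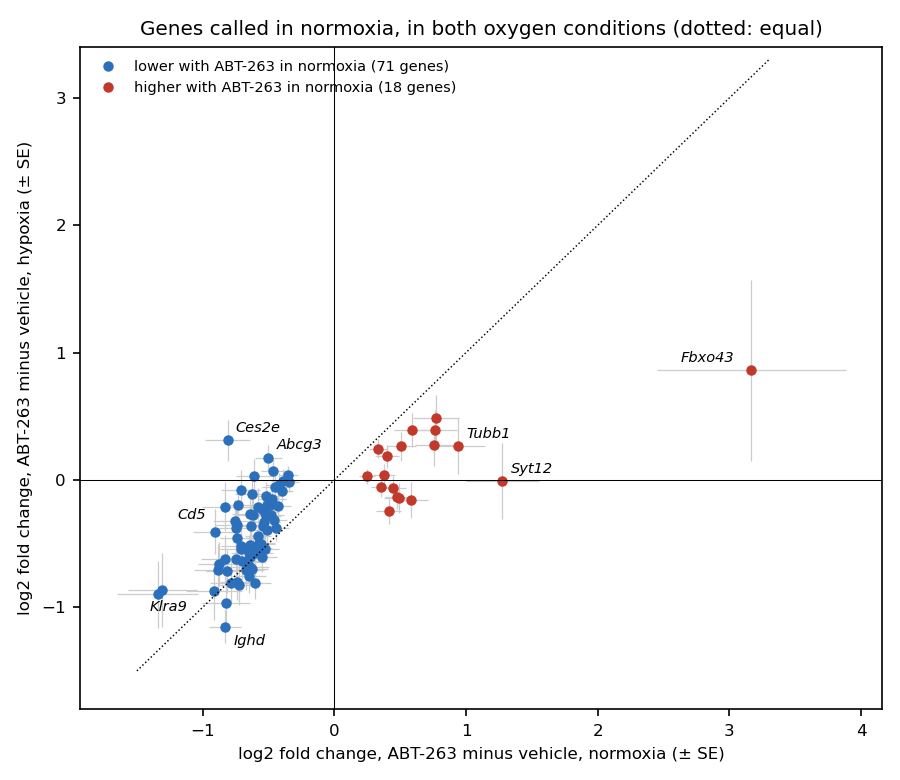
Log2 fold change of ABT-263 against vehicle in normoxia (x axis) and in hypoxia (y axis) for the 89 genes called in normoxia, each with its SE in both directions; the dotted line marks equal values. Of the 71 lower genes 66 are also below 0 in hypoxia, whereas the 18 higher genes lie on both sides of 0.

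B cell genes had much the same size in both conditions. The median of the 27 genes was −0.61 in normoxia and −0.65 in hypoxia, all 27 were below 0 in each, and 10 were called lower in hypoxia. Ighd fell by 0.83 ± 0.12 in normoxia and by 1.15 ± 0.13 in hypoxia. T cell genes had a median of −0.53 in normoxia and −0.26 in hypoxia, where none was called, and NK and cytotoxic genes of −0.74 and −0.51, with 1 call in hypoxia. Platelet genes had a median of 0.54 in normoxia and 0.03 in hypoxia, and Tubb1 was at 0.94 ± 0.20 and 0.27 ± 0.22. Tubb1 ran from 5.18 to 10.7 CPM with vehicle and from 6.44 to 9.58 CPM with ABT-263 in hypoxia, both below most normoxic libraries.

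No single gene passed a test of the difference between conditions after adjustment in edgeR, and the medians of the lists were not tested against each other. The share of genes called for this term was 0.00% by edgeR and its smallest adjusted p was 0.286, while 1546 genes (9.29%) had an unadjusted p under 0.05. DESeq2 called 17 genes for the same term. Before adjustment, 13 of 28 platelet genes and 14 of 33 motile cilium genes were below 0.05, as were 5 of 26 genes of T cells, 2 of 24 of the NK list and none of 27 of B cells. The SE of a difference was 0.16 at the median, and Cd3e of the T cell list (−0.83 ± 0.18 and −0.21 ± 0.19) had an adjusted p of the difference of 0.467. Among the genes called in normoxia, 17 of the 71 lower and 12 of the 18 higher had an unadjusted p under 0.05 for the difference. Examples were Ces2e (−0.81 ± 0.17 in normoxia, 0.31 ± 0.16 in hypoxia), Abcg3 (−0.50 ± 0.10 and 0.17 ± 0.10), Kcnj13 (0.41 ± 0.10 and −0.25 ± 0.10) and Pcx (0.47 ± 0.09 and −0.14 ± 0.09). These genes were chosen for their normoxic value, which enters the difference.

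Mitosis and G2/M genes had a median of 1.23 in hypoxia, with 39 of 40 above 0 and none called. Cdk1 was between 12.7 and 34.9 CPM in all 5 hypoxic ABT-263 libraries and between 5.94 and 10.1 CPM in the hypoxic vehicle libraries, without overlap. Mcidas was at 5.05, 0.521, 0.818, 5.02 and 0.496 CPM in the hypoxic ABT-263 libraries, replicates 1 to 5, high in replicates 1 and 4, and between 0.435 and 1.03 CPM with vehicle. Genes of the motile cilium had a median of 0.21 in normoxia and −0.27 in hypoxia.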

How the data were processed

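RNA from whole lung was read, per the labels, from stranded TruSeq mRNA libraries on a NextSeq 500. The authors deposited expected counts per gene, and the submitters' processing notes name Trimmomatic, STAR, RSEM and GRCm38, with parameters not given in the sources used here. RSEM divides reads that fit several genes, so values of close copies are uncertain. Of 54532 gene identifiers, 54495 were in GENCODE M21, used for coordinates.

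Groups follow sample titles, and 3 libraries of the 22 have a conflicting treatment tag. Pairs of libraries within a normoxic group differed beyond sampling noise (chi-square test, 5.19 to 37.6 per gene), so none was treated as a library deposited more than once. Expected counts were rounded, filtered with filterByExpr (minimum count 10), scaled by TMM and tested in a single fit of 4 groups with edgeR 4.0.16 (robust quasi-likelihood F test, two-sided, R 4.3.3). The Benjamini-Hochberg method over 16638 genes gave adjusted p-values, with 0.05 as the threshold. Log2 fold changes carry SEs (the size over the root of the F statistic). Levels are CPM with TMM factors, and list scores are mean log2 CPM (prior count 2). The median SE in normoxia was 0.11.

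The comparison, the 49 lists and the rule for named genes were chosen with earlier results of these data known. The rule took the 15 largest called changes in each direction with at least 2 CPM, without gene models and receptor segments, up to 4 members of each list with the smallest p, and drug target, senescence and multiciliated genes. Other genes were chosen after their values were seen. Lists share some genes. Promoters came from RefSeq (GRCm38.p6). Fits were tested on simulated data, alternatives were DESeq2 1.42.0, limma-voom (limma 3.58.1) and those of the closing section, and figures used matplotlib 3.10.9. Some genes are not reported here.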

Additional observations from a re-analysis of the deposited data

Results flagged for a closer look

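Among 74 sets of normoxic libraries examined for a single library far from its group, 2 had such a library, both times ABT-263 replicate 2. About 1 in 20 sets would be found by chance. The B cell gene Cd22 was at 24.35 CPM there, while the other 5 ABT-263 libraries ran from 17.1 to 18.8 CPM. Mitochondrial genes took 5.722% of counts in that library and 4.37% to 4.75% in the other 5. The vehicle libraries ran from 4.11% to 6.25%, so this value is within their range.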

How the results depend on the processing

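The 89 calls in normoxia became 59 with library totals without TMM, 324 with DESeq2 (which held all 89), 17 with only the compared groups in the fit, 4 with an added 2-fold threshold, 16 without the 3 libraries with conflicting labels, 0 with treatment read from the tag and 147 without ABT-263 replicates 2 and 6 (70 of them shared). Leaving out each library gave 1 to 183. Close counts came from RLE factors (90), no filter (88), a filter of 1 CPM in 4 libraries (90) and limma-voom (107).

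In the same order as above, B cell calls went from 13 to 21 with DESeq2, 4 with the compared groups, 0 with the 2-fold threshold, 5 without the conflicting labels and 0 by the tag, and were 1 to 19 with a library left out. T cell calls went from 7 to 15, 1, 0, 2 and 0, and were 0 to 12. NK and cytotoxic calls went from 7 to 4 with library totals and to 15, 2, 1, 0 and 0, and were 0 to 10. The lists' medians moved less with a library left out, from −0.68 to −0.51 for B cell, −0.58 to −0.47 for T cell and −0.83 to −0.66 for NK and cytotoxic genes.

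The 50 hypoxia calls became 247 with DESeq2, 12 with limma-voom, 152 with the compared groups, 10 with the 2-fold threshold, 77 without the conflicting labels, 0 by the tag and 257 without normoxia ABT-263 replicates 2 and 6, and were 3 to 228 with a library left out. The interaction had 17 calls with DESeq2, 1 without the conflicting labels, 8 without replicates 2 and 6, and 0 to 2 with a library left out.

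All 38 named genes that were called kept their direction under each setting. Of 38, 7 stayed called with the compared groups and 7 without the conflicting labels. Ighd stayed called in 20 of 21 settings, Cd5 in 17, Cdkn1a and Tubb1 in 10. The 2-fold threshold is not among the 21, and none of these genes reached it. The cause of these moves was not tested, except that fewer libraries enter some fits. No paired analysis was possible because the labels give no pairing of libraries. The labels give no replicate numbers either, and those used here follow the order of the samples.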
